A study of Mus musculus with 25 samples.

Results

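The 10 genes described here are chemokine receptors and one related guidance receptor that lymphocytes use to find their place in a tissue: *Cxcr4*, *Cxcr5*, *Cxcr6*, *Ccr2*, *Ccr4*, *Ccr7*, *Ccr9*, *Ccr10*, *Cx3cr1* and *Gpr183*. They were taken by name from a table of 48795 mouse genes, and the choice was made with earlier results of these data known. All 10 were found, and all 10 reached the mean normalized count of 10 over the 25 libraries that 14141 genes reached and that was set for testing.

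The libraries came from Thy1.2+CD44- thymocytes, sorted so as to hold the DN3 and DN4 stages, of Rag1KO mice aged 7 to 8 weeks that also carried CD2Cre. Without RAG1 these cells make no TCRβ chain and halt at β-selection, and an intraperitoneal injection of 150 µg anti-CD3ε supplies a signal in its place. Control mice were Wnk1fl/+/CD2Cre/Rag1KO (labelled HET) and WNK1-deficient mice were Wnk1fl/fl/CD2Cre/Rag1KO (labelled KO), so that the deletion, made by a Cre transgene active in lymphoid cells, leaves the control cells with 1 *Wnk1* allele. Thymi were taken at 0 hr (no injection), 3, 24 and 48 hr, with 3 mice of each genotype at each time and 4 WNK1-deficient mice at 0 hr.

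These receptors are seven-pass membrane proteins that signal mainly through inhibitory G proteins and steer a cell up a gradient of their ligand. In the thymus CXCR4, the receptor for CXCL12, holds early thymocytes in the cortex and gives a costimulatory signal at β-selection. CCR9, the receptor for CCL25, and CCR7, the receptor for CCL19 and CCL21, are the receptors best known for the settling of progenitors and for the later move of thymocytes to the medulla, while most of the others are better known from mature T, B, myeloid and innate lymphoid cells.

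Recovered depth was 22527777 to 57304830 reads per library, and *Wnk1* was lower in every WNK1-deficient library than in every control library of the same time. All 14 T lineage markers were detected in every group. Of the control libraries replicate 3 at 3 hr and replicate 3 at 24 hr, and of the WNK1-deficient libraries replicate 3 at 48 hr, stood apart from their groups, and values without these 3 libraries are given where they matter. Libraries of 0 and 48 hr carried *Xist* (from 10918 normalized counts up) and those of 3 and 24 hr carried Y-linked transcripts (from 3704 up) with at most 13.8 of *Xist*, so a difference between 0 hr and 3 or 24 hr cannot be told apart from a difference between the sexes. Sequencing lanes, named in the sample names, also differed: at 0 hr the control libraries were all of lane 1 and the WNK1-deficient libraries all of lane 2. Lanes 1 and 2 share a group only in control at 48 hr, where replicate 3 alone is of lane 1. Lanes 1 and 3 share one only in WNK1-deficient thymocytes at 48 hr, where replicate 3 alone is of lane 3. A value of 0 or 48 hr with lane as a covariate thus rests on 1 or both of these libraries. In bulk RNA, fewer cells that express a receptor and less of its RNA in each cell cannot be told apart.

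Of the 10 receptor genes, 6 lie on chromosome 9, and *Ccr9*, *Cxcr6* and *Ccr2* sit there within 342 kb of each other (GRCm38). Windows from 250 bases before to 50 bases after the transcript start were found for 7 of the 10 genes in RefSeq sequence (GRCm38.p6), of which those of *Ccr4* and *Ccr2* were cut at a transcript start that lies 8932 and 265 bases inside the gene span. The 4 windows printed here belong to *Cxcr4*, which fell from 0 to 24 and 48 hr in both genotypes, to *Ccr9* and *Ccr4*, which rose in both genotypes, and to *Cx3cr1*, the one whose response differed by genotype in the main test. Capitals mark matches on either strand to the E-box letters CANNTG, bound by E proteins such as those that act in DN thymocytes, and to the RUNX letters TGNGGT.
Cxcr4, chr1:128592250-128592549 (- strand): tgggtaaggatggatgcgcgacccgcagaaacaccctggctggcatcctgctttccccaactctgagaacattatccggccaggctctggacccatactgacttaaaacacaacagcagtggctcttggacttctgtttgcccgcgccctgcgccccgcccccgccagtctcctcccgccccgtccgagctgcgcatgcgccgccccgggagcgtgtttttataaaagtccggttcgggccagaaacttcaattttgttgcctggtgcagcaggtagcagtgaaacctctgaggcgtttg
Ccr9, chr9:123766961-123767260 (+ strand): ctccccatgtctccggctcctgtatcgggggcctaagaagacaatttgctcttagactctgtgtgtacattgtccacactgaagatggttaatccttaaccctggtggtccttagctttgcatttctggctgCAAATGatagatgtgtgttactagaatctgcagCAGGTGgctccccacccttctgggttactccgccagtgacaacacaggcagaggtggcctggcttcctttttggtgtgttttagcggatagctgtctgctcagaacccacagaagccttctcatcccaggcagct
Ccr4, chr9:114496495-114496794 (- strand): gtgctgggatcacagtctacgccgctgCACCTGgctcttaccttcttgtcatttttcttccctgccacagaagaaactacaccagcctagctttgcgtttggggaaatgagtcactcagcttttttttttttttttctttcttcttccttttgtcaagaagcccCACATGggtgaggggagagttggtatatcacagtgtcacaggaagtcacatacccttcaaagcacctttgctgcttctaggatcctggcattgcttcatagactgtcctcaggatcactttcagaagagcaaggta
Cx3cr1, chr9:120068247-120068546 (- strand): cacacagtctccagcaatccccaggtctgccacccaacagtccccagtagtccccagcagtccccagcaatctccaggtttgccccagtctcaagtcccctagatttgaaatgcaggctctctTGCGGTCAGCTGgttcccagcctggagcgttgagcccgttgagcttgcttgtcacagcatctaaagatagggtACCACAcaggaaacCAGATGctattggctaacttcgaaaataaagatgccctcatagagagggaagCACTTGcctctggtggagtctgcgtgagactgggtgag

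The *Ccr9* and *Ccr4* windows each held 2 E-box matches and no RUNX match, the *Cx3cr1* window held 3 and 2, and the *Cxcr4* window held neither. Over the 7 windows, 6 held an E-box match, against 72.3% of 32851 mouse promoter windows of the same length, and 4 held a RUNX match, against 45.8%. The AP-1 letters TGANTCA were found in *Ccr4* alone, 143 bases before the transcript start used, and in 7.81% of all windows. The KLF letters CCACCC were found in *Ccr9* and *Cx3cr1* and in 31.5% of all windows, the TCF/LEF letters CTTTGA in *Ccr4* and *Cxcr6* and in 16% of all windows, and the GATA letters AGATAA in *Ccr2* alone and in 11.2% of all windows. No match to the EGR letters GCGTGGG (5.04% of all windows), the ETS letters CCGGAA (14.9%) or the FOXO letters GTAAACA (3.65%) was found. The AP-1 letters read alike on both strands apart from the free base, and none of the capitals of the 2 motifs overlap in these 4 windows. These matches describe letters in the windows and are no measure of binding.

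**Figure D1:**
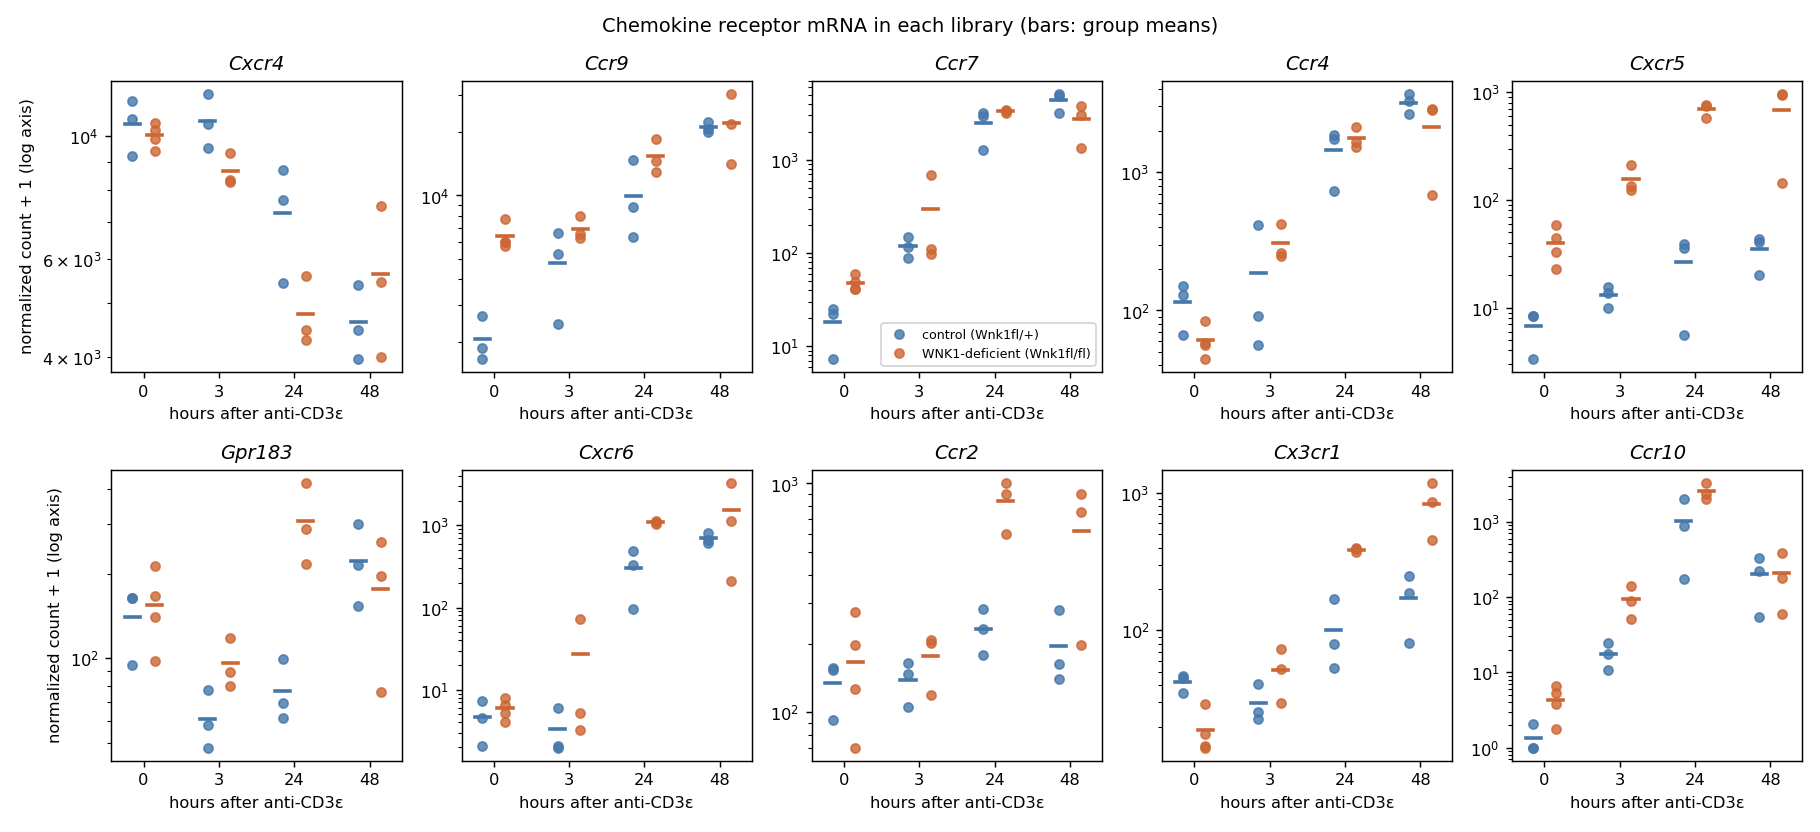
Normalized counts plus 1 (log axis, each panel with its own range) of the 10 receptor genes by hours after anti-CD3ε in every library of control (blue) and WNK1-deficient (orange) thymocytes, where bars are group means. *Cxcr4* lies lower at 24 and 48 hr than at 0 hr while *Ccr7*, *Ccr9* and *Cxcr6* lie higher, and the *Cxcr5* points of the 2 genotypes do not overlap at any time.

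WNK1-deficient thymocytes held more mRNA of several receptors than control thymocytes of the same time, above all of *Cxcr5*. With all libraries in the fit, the median difference over the set was widest at 24 hr. At 0 hr 4 of 10 passed the test (limma on log2(normalized count + 1), adjusted p below 0.05 over all genes tested), *Ccr9*, *Ccr7* and *Cxcr5* being higher and *Cx3cr1* lower, where 22.1% of all tested genes passed (11% higher, 11.1% lower). At 3 hr *Cxcr5* alone passed, against 9.18% of all genes (5.75% higher, 3.43% lower). At 24 hr 5 passed, with *Cxcr5*, *Cx3cr1*, *Gpr183* and *Ccr2* higher and *Cxcr4* lower, against 12.5% (7.03% higher, 5.45% lower), and at 48 hr *Cxcr5* and *Cx3cr1* were higher, against 13.1% (6.13% higher, 6.95% lower). The median log2 difference of the 10 genes was 0.34, 0.76, 1.87 and 0.14 at the 4 times, whereas the median over all tested genes lay between -0.02 and 0.00. *Cxcr5* was the one member that passed at all 4 times. The count of 4 at 0 hr was 1 without control replicate 1 and 2 without control replicate 2 or WNK1-deficient replicate 1, 2 or 4, and the count of 5 at 24 hr was 3 without deficient replicate 1 or 2. The count of 1 at 3 hr was 2 without control replicate 3. Without the 3 libraries that stand apart the counts were 6, 4, 4 and 3 at 0, 3, 24 and 48 hr, so that 24 hr no longer had the most calls.

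The libraries of the 2 genotypes did not overlap for 6 of the 10 genes at 24 hr, all higher without WNK1, where 33.9% of all tested genes did not overlap, 17% being higher. The same count was 4 at 0 hr (3 higher, against 40.5% in either direction and 19.4% higher), 4 at 3 hr (3 higher, against 28.2% and 14%) and 2 at 48 hr (both higher, against 23.3% and 11.5%). At 0 and 48 hr these shares lie near those of all genes.

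**Figure D2:**
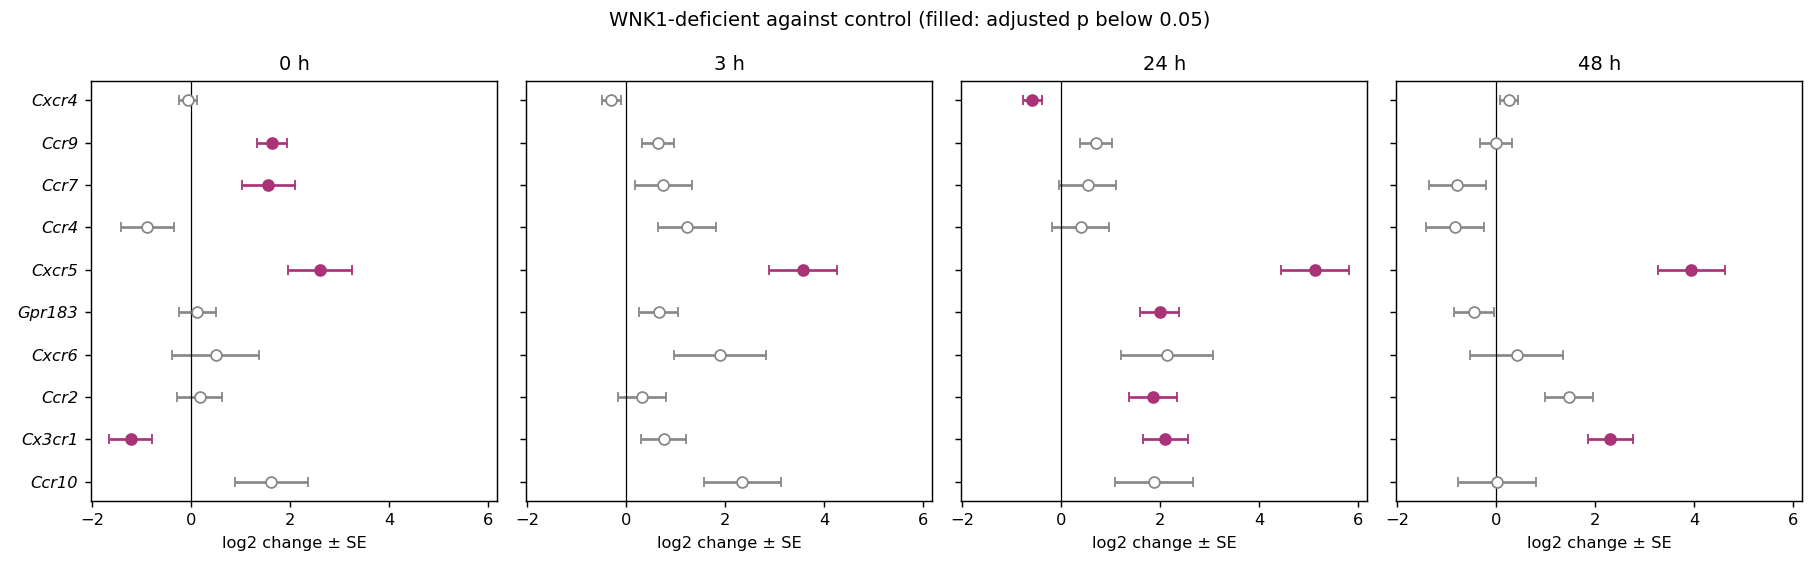
Log2 difference in normalized count between WNK1-deficient and control thymocytes (x axis, point ± SE from the fit of all 25 libraries) for each receptor gene at 0, 3, 24 and 48 hr, with filled points where the adjusted p is below 0.05. *Cxcr5* is filled in all 4 panels, at 2.60, 3.57, 5.13 and 3.94, and at 24 hr *Cxcr4* is the one member below 0 that passed.

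Most of the set passed the test at 24 and 48 hr against 0 hr in both genotypes. The control count at 3 hr lay near the share of all genes. Changes from 0 to 3 or 24 hr cannot be told apart from sex. In control thymocytes 4 of 10 receptor genes passed the test at 3 hr against 0 hr (3 up, 1 down), 6 at 24 hr (5 up, 1 down) and 8 at 48 hr (7 up, 1 down). Of all tested genes 37% passed at 3 hr (18.4% up, 18.5% down), 33.9% at 24 hr (17% up, 16.9% down) and 42.4% at 48 hr (21.6% up, 20.8% down). In WNK1-deficient thymocytes 5 passed at 3 hr (all up), 10 at 24 hr (9 up, 1 down) and 9 at 48 hr (8 up, 1 down), where 24.7% (13.3% up, 11.3% down), 30.4% (16% up, 14.3% down) and 26.8% (14.3% up, 12.5% down) of all genes did. With lane as a covariate, a correction that rests here on replicate 3 of each genotype at 48 hr, the count of 5 at 3 hr became 1, *Ccr10*. Without deficient replicate 1 at 3 hr the count of 5 became 3, as the control count of 4 at 3 hr became 2 without control replicate 3 at 3 hr. From 3 to 24 hr, a step in which sex does not change, 7 passed in control (6 up, 1 down) and 10 in WNK1-deficient thymocytes (9 up, 1 down), against 43.6% (21.3% up, 22.3% down) and 37.1% (18.4% up, 18.7% down) of all genes. The control count was 4 without control replicate 1 at 24 hr. *Cxcr4* was the gene that fell in each of the comparisons of 24 or 48 hr.

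**Figure D3:**
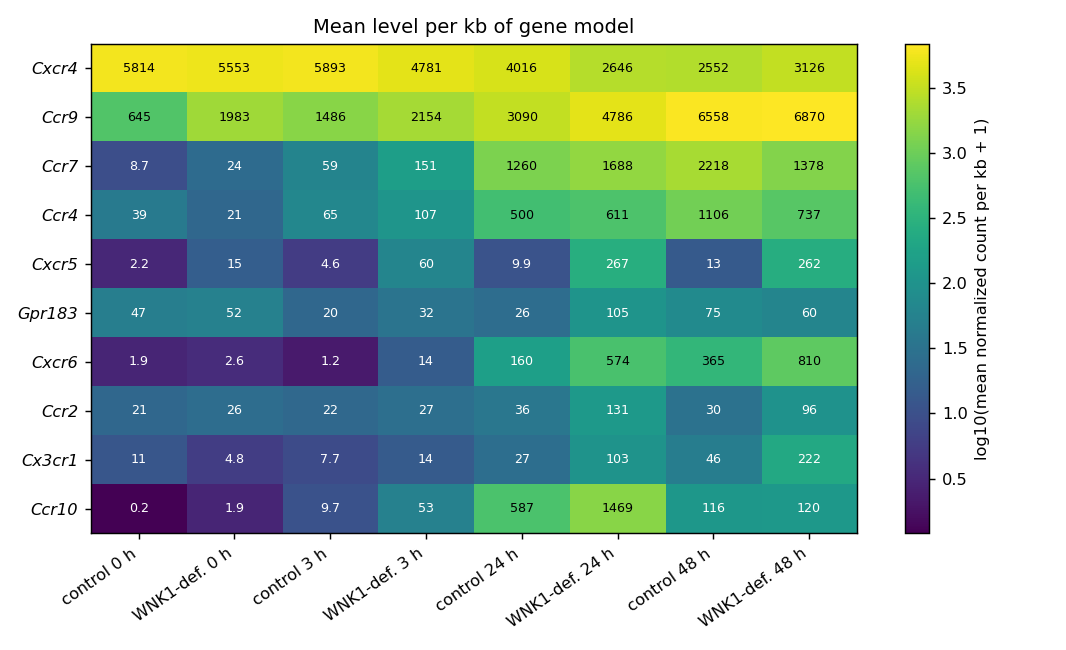
Mean normalized count per kb of gene model for the 10 receptor genes (rows) in the 8 groups (columns), with colour on a log10 scale of the mean plus 1. *Cxcr4* is the highest row at 0 and 3 hr in both genotypes, and *Ccr9* is the highest at 48 hr.

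Per kb of gene model, *Cxcr4* had the highest level of the set in control thymocytes at 0 hr (5814 ± 657 normalized counts per kb, SD, n = 3), followed by *Ccr9* (645 ± 166), and the other 8 genes were all below 48. At 48 hr in control the order was *Ccr9* (6558 ± 352), *Cxcr4* (2552 ± 403), *Ccr7* (2218 ± 517) and *Ccr4* (1106 ± 183), where the levels of *Cxcr4* and *Ccr7* did not differ beyond their spread. In WNK1-deficient thymocytes *Ccr9* had already passed *Cxcr4* at 24 hr (4786 ± 892 against 2646 ± 389), whereas in control at that time *Cxcr4* (4016 ± 922) and *Ccr9* (3090 ± 1345) lay within their spread of each other. *Cxcr5* was the lowest of the 10 in control at 24 and 48 hr (9.86 ± 7.04 and 13 ± 4.96).

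The 2 receptors with the highest levels moved in opposite directions with time. *Cxcr4* (ENSMUSG00000045382, chromosome 1, 128588199 to 128592299, minus strand) codes for the CXCL12 receptor. Its normalized counts in control libraries were 10732, 11573 and 9229 at 0 hr, then 11912, 9516 and 10535 at 3 hr, 5427, 8687 and 7667 at 24 hr and lastly 5402, 3967 and 4474 at 48 hr. In WNK1-deficient libraries they were 9895, 10577, 9424 and 10260.5 at 0 hr, then 8287, 8327 and 9321 at 3 hr, 4293, 4469.7 and 5588 at 24 hr and lastly 5449.9, 4005 and 7498 at 48 hr. The 48 hr libraries were below every 0 hr library in both genotypes, and at 24 hr 1 control library still overlapped the deficient range. Against 0 hr the log2 change in control was -0.55 ± 0.19 (SE, adjusted p = 0.0274) at 24 hr and -1.19 ± 0.19 (SE, adjusted p = 3.27e-05) at 48 hr. In WNK1-deficient thymocytes it was -1.08 ± 0.18 (SE, adjusted p = 7.92e-05) at 24 hr and -0.87 ± 0.18 (SE, adjusted p = 0.000915) at 48 hr.

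Between the genotypes, *Cxcr4* differed by -0.06 ± 0.18 (SE, adjusted p = 0.835) at 0 hr and -0.30 ± 0.19 (SE, adjusted p = 0.367) at 3 hr, neither past the test, although the 3 hr libraries of the genotypes did not overlap. At 24 hr it was lower without WNK1 by a log2 difference of -0.58 ± 0.19 (SE, adjusted p = 0.0459). This call was lost when any of 4 of the 6 libraries was left out (adjusted p up to 0.161), and in 6 of 11 other alternatives, which were no filter (0.0738), quantile normalization (-0.49, 0.106), a common total (0.0948), the replicate block (0.0661), the groups compared fitted alone (0.125) and the omission of the 3 libraries that stand apart (0.0820). The control change at 24 hr against 0 hr was also lost on leaving out any of 3 libraries (control replicate 1 or 2 at 0 hr or control replicate 1 at 24 hr, adjusted p up to 0.194).

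*Ccr9* (ENSMUSG00000029530, chromosome 9, 123767211 to 123783457, plus strand), for the CCL25 receptor, was about 3-fold higher without WNK1 before stimulation and rose in both genotypes afterwards. At 0 hr its normalized counts were 2676, 1879 and 1665 in control and 6034, 5722, 6024 and 7735 in WNK1-deficient libraries, groups that lie well apart, with a log2 difference of 1.64 ± 0.30 (SE, adjusted p = 0.000604). With lane as a covariate the difference was 1.77 (adjusted p = 0.0311). That value does not separate lane from genotype, since each lane at 0 hr holds 1 genotype and the correction rests on control replicate 3 at 48 hr. On leaving out 1 library at a time the difference ran from 1.5 to 1.84. At 3 hr the control libraries held 5272, 2451 and 6622 and the deficient ones 6520.5, 7972 and 6298, so that 1 control library now lay within the deficient range. The control rise from 0 to 3 hr was 1.12 ± 0.32 (SE, adjusted p = 0.00973), lost without control replicate 3 at 3 hr (0.82, adjusted p = 0.0679), and the deficient change was 0.12 ± 0.30 (SE, adjusted p = 0.803).

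At 24 hr *Ccr9* stood at 14730.1, 8779.9 and 6316 in control and 12989, 14626 and 18571 in WNK1-deficient libraries, and at 48 hr at 20117, 20836 and 22338 and 21815, 30351 and 14138. The genotypes overlapped at both times, with differences of 0.70 ± 0.32 (SE, adjusted p = 0.159) and -0.00 ± 0.32 (SE, adjusted p = 1.00). The 24 hr difference passed with lane as a covariate (0.94, adjusted p = 0.0192). It was 0.42 (adjusted p = 0.378 by limma) without the 3 libraries that stand apart. The rise to 48 hr was 3.37 ± 0.32 (SE, adjusted p = 6.50e-08) in control and 1.73 ± 0.30 (SE, adjusted p = 0.000209) in deficient thymocytes. The difference between these 2 rises was -1.64 ± 0.44 (SE, adjusted p = 0.0660), which did not pass here. It passed with DESeq2 on the recovered reads (-1.55, adjusted p = 0.0191) and by limma with only the groups compared (adjusted p = 0.0256).

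*Ccr7* and *Ccr4* rose together from low levels. *Ccr7* (ENSMUSG00000037944, chromosome 11, 99144199 to 99155077, minus strand), for the receptor of CCL19 and CCL21, had normalized counts in control of 21.1, 6.33 and 24.3 at 0 hr, then 148, 88.0 and 116 at 3 hr, 2987, 3216 and 1275 at 24 hr and lastly 3212, 5065 and 4886 at 48 hr. In WNK1-deficient libraries they were 48.4, 39.9, 59.1 and 39.8 at 0 hr, then 687, 95.7 and 111 at 3 hr, 3219.7, 3462 and 3334 at 24 hr and lastly 3040.3, 3793 and 1343 at 48 hr. All libraries of 24 and 48 hr were above those of 3 hr, and 1 deficient library at 3 hr was far above the other 2. The rise to 48 hr was 8.07 ± 0.57 (SE, adjusted p = 1.61e-09) in control and 5.72 ± 0.54 (SE, adjusted p = 2.45e-07) without WNK1, and the difference between the rises, -2.35 ± 0.78 (SE, adjusted p = 0.158), did not pass. The rise to 3 hr was 2.86 ± 0.57 (SE, adjusted p = 0.000646) in control and 2.05 ± 0.54 (SE, adjusted p = 0.00843) without WNK1, of which the second was 1.14 and lost its call (adjusted p = 0.0757) without replicate 1 at 3 hr.

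At 0 hr every WNK1-deficient library held more *Ccr7* than every control library, with a log2 difference of 1.56 ± 0.54 (SE, adjusted p = 0.0411). The call was lost on leaving out any of 6 of the 7 libraries (adjusted p up to 0.249), all but control replicate 3. It was also lost in 5 of 11 other alternatives, which were lane as a covariate (1.84, adjusted p = 0.288), edgeR on the recovered reads (1.42, adjusted p = 0.150), no filter, a pseudocount of 5 and the replicate block (adjusted p = 0.0655, 0.0653 and 0.0599). At 24 hr the deficient libraries again lay above the control libraries, by a narrow margin, and at 3 and 48 hr the genotypes overlapped. None of these differences passed (0.75, 0.53 and -0.79 on the log2 scale).

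*Ccr4* (ENSMUSG00000047898, chromosome 9, 114490316 to 114505476, minus strand), for the receptor of CCL17 and CCL22, ran from 65.6, 149 and 128 at 0 hr to 2630.5, 3675 and 3293 at 48 hr in control. In WNK1-deficient thymocytes it ran from 55.3, 56.8, 43.6 and 82.7 to 2847, 2863 and 688, the last of these a library that stands apart. The rise to 48 hr was 4.86 ± 0.58 (SE, adjusted p = 1.15e-06) in control and 4.91 ± 0.54 (SE, adjusted p = 1.96e-06) without WNK1 (5.60 without that library). At 3 hr it stood at 54.9, 90.0 and 416 in control and 245, 262 and 419.7 without WNK1, a difference of 1.23 ± 0.58 (SE, adjusted p = 0.206). Control replicate 3 at 3 hr, which held the 416, is another of the 3 libraries left out together after seeing the data. Without these 3 libraries the difference was 2.08 and passed (adjusted p = 0.000704). No genotype difference in *Ccr4* passed with all libraries in the fit.

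*Cxcr5* (ENSMUSG00000047880, chromosome 9, 44511787 to 44526444, minus strand) codes for the CXCL13 receptor, known for bringing B cells and follicular helper T cells into follicles. Its normalized counts in control libraries stayed low, at 2.34, 7.39 and 7.40 at 0 hr, then 12.8, 8.90 and 14.7 at 3 hr, 37.8, 34.9 and 4.59 at 24 hr and lastly 19.1, 42.7 and 40.0 at 48 hr. In WNK1-deficient libraries they were 31.8, 43.8, 57.7 and 22.1 at 0 hr, then 135, 123 and 211 at 3 hr, 768, 751 and 577 at 24 hr and lastly 959.7, 952 and 142 at 48 hr. Every deficient library was above every control library of its time, and the lowest of the 48 hr libraries was again replicate 3.

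The log2 difference in *Cxcr5* between the genotypes was 2.60 ± 0.64 (SE, adjusted p = 0.00603) at 0 hr, 3.57 ± 0.68 (SE, adjusted p = 0.00198) at 3 hr, 5.13 ± 0.68 (SE, adjusted p = 5.94e-05) at 24 hr and 3.94 ± 0.68 (SE, adjusted p = 0.000782) at 48 hr. It was 4.22 at 24 hr without control replicate 3 and 4.86 at 48 hr without WNK1-deficient replicate 3, with the call kept in both. Within single lanes it was 3.29 for the 3 hr libraries, 7.09 and 3.95 for those of 24 hr and 4.54 for those of 48 hr. Each of these values has only 1 library of 1 of the genotypes. For 3.29 and 7.09 that library is control replicate 3 of the time, which is among the libraries that stand apart. At 0 hr, where each lane holds 1 genotype, the call was lost with lane as a covariate (3.07, adjusted p = 0.0650) and without control replicate 1 (adjusted p = 0.0516).

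*Cxcr5* also rose with stimulation, by 2.42 ± 0.68 (SE, adjusted p = 0.00691) from 0 to 48 hr in control and by 3.76 ± 0.64 (SE, adjusted p = 0.000179) without WNK1. The difference between the responses was 2.53 ± 0.93 (SE, adjusted p = 0.220) at 24 hr and 1.34 ± 0.93 (SE, adjusted p = 0.628) at 48 hr. Neither passed with all libraries, and the second passed without the 3 libraries that stand apart (2.25, adjusted p = 0.0457). Of 6 B cell markers only 1 reached the mean set for testing, and it makes up most of their sum. That sum was lower without WNK1 at 24 hr, at 495 to 570 normalized counts against 988 to 1492 in control. *Ms4a1* and *Pax5* were at 0 in every library of both groups. The part of B cells in the *Cxcr5* difference was not tested.

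*Gpr183* (ENSMUSG00000051212, chromosome 14, 121952331 to 121965193, minus strand) codes for the oxysterol receptor EBI2 that guides lymphocytes in follicles and thymic dendritic cells. The gene passed the test between the genotypes at 24 hr alone. At 24 hr it stood at 98.7, 68.2 and 60.6 in control and 421, 289 and 216 in WNK1-deficient libraries, all deficient libraries being higher, with a log2 difference of 1.99 ± 0.40 (SE, adjusted p = 0.00226). At 0 hr the counts were 93.7, 163 and 163 in control and 212, 165, 97.1 and 139.7 without WNK1, and at 48 hr they were 152, 300.5 and 213 in control and 196, 258 and 75.1 without WNK1, with the groups overlapping at both times. At 3 hr the deficient libraries held 118, 88.6 and 78.5, all above the control libraries, a difference that did not pass. The control libraries of 3 hr held 56.9, 76.1 and 47.1, below those of 0 hr by -1.19 ± 0.40 (SE, adjusted p = 0.0234). That fall was lost on leaving out any of 3 libraries (control replicate 2 or 3 at 0 hr or control replicate 3 at 3 hr, adjusted p up to 0.0851). With lane as a covariate it turned to 0.46 (adjusted p = 0.649), a correction that rests on deficient replicate 3 at 48 hr, the library with 75.1. The rise from 3 to 24 hr without WNK1 was 1.66 ± 0.40 (SE, adjusted p = 0.00275), and the same step in control was 0.33 ± 0.40 (SE, adjusted p = 0.527).

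*Cx3cr1* (ENSMUSG00000052336, chromosome 9, 120048683 to 120068296, minus strand) codes for the receptor of CX3CL1 that marks monocytes, NK cells and cytotoxic T cells. By limma with all libraries it was the one receptor gene whose response to stimulation differed between the genotypes. Control libraries held 45.7, 33.8 and 44.4 normalized counts at 0 hr, then 24.5, 21.8 and 39.8 at 3 hr, 169, 78.2 and 52.3 at 24 hr and lastly 185, 249 and 80.1 at 48 hr. WNK1-deficient libraries held 16.6, 13.1, 28.2 and 13.5 at 0 hr, then 72.0, 51.4 and 28.9 at 3 hr, 387, 394 and 369.6 at 24 hr and lastly 854, 1179 and 452 at 48 hr. The deficient libraries thus lay below all control libraries at 0 hr and above all of them at 24 and 48 hr.

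The difference in the *Cx3cr1* response was 3.33 ± 0.63 (SE, adjusted p = 0.0127) at 24 hr, where 0.658% of all genes passed this test, and 3.53 ± 0.63 (SE, adjusted p = 0.00758) at 48 hr, where 1.36% passed. At 3 hr it was 1.98 ± 0.63 (SE, adjusted p = 0.236), and none of the 10 genes passed by limma, edgeR or DESeq2 (3 at an unadjusted p below 0.05 in limma), against 0.0707% of all genes. The genotype difference was 2.10 ± 0.46 (SE, adjusted p = 0.00477) at 24 hr and 2.31 ± 0.46 (SE, adjusted p = 0.00244) at 48 hr. Within single lanes it was 2.88 and 1.68 at 24 hr and 3.63 at 48 hr, each value with only 1 library of 1 of the genotypes. At 48 hr the genotype difference missed the threshold with these groups fitted alone (adjusted p = 0.0598). The lower level at 0 hr, a difference of -1.22 ± 0.43 (SE, adjusted p = 0.0458), lost its call on leaving out any of 6 of the 7 libraries (adjusted p up to 0.143), all but WNK1-deficient replicate 3. It was also lost in 5 of 11 other alternatives, among them the replicate block (-1.12, adjusted p = 0.104). The difference was -2.63 (adjusted p = 0.0300) with lane as a covariate, which does not separate lane from genotype at 0 hr.

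*Ccr2* (ENSMUSG00000049103, chromosome 9, 124101918 to 124109140, plus strand), for the CCL2 receptor of monocytes and some activated T cells, was higher without WNK1 at 24 hr. The normalized counts there were 281, 176 and 230.3 in control and 1004, 897 and 602 in WNK1-deficient libraries, with no overlap and a log2 difference of 1.85 ± 0.49 (SE, adjusted p = 0.0164), which missed the threshold without deficient replicate 1 or 2 (adjusted p up to 0.0700). At 0 hr (156, 152 and 92.0 against 272, 195, 125 and 69.2) and 3 hr (105, 163 and 147 against 200.5, 207 and 118) the genotypes overlapped. At 48 hr the counts were 279, 161 and 139 in control and 753, 900.4 and 196 without WNK1, overlapping through deficient replicate 3, with a difference of 1.46 ± 0.49 (SE, adjusted p = 0.0519). This difference passed in 7 of 11 alternatives, with lane as a covariate (2.56, adjusted p = 0.0229), the replicate block (adjusted p = 0.0129), edgeR (1.70, adjusted p = 0.0229), DESeq2 (1.68, adjusted p = 0.00381), without the 3 libraries that stand apart (2.15, adjusted p = 0.00525) and, by a narrow margin, with a common total or a pseudocount of 5. The value with lane is that of lane 1 alone, 1 control library against 2 deficient ones, and deficient replicate 3 does not enter it.

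Markers of other cells, and of T cells themselves, moved with some of these differences. At 0 hr the summed T lineage markers (14 genes) ran from 339912 to 408385 normalized counts without WNK1 and from 540309 to 600393 in control. The myeloid sum (8 genes, 652 to 1661 against 2091 to 2631 in control) and the B cell sum (6 genes, 816 to 1166 against 2229 to 2607), most of it from 1 gene, were also lower. The sum of 11 NK and innate lymphoid markers (14764 to 25717 against 5096 to 7050.4), nearly all of it *Gzma*, and the dendritic sum (8 genes, 2017 to 4499.6 against 1282 to 1730.5), most of it *Cd74*, were higher. In the control libraries of that time *Klrd1*, *Zbtb46* and *Clec9a* were at 0.

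At 3 hr the NK and innate lymphoid sum (7469 to 11361 without WNK1, 1856 to 4673 in control) and the dendritic sum (2168 to 3100.2 against 928 to 1295) were again higher without overlap, and the T lineage and myeloid sums overlapped. At 24 hr the T lineage sum was lower without WNK1 (173754 to 213853 against 232048 to 305081), the dendritic sum higher (2066 to 3502 against 455 to 785) and the stromal and epithelial sum (9 genes) higher (13460.3 to 13958 against 7013 to 13099.9), while the myeloid sum overlapped (449.5 to 705 against 262 to 727). The NK and innate lymphoid sum overlapped as well (15895 to 18709 against 15991 to 23486). Of its 10 tested genes *Ncr1*, *Eomes*, *Klrk1* and *Tbx21* were higher without WNK1 at 24 hr and 1 gene was lower. *Gzma*, the largest part of the control sum, ran from 3696 to 8988 without WNK1 and from 9202 to 18721 in control and did not pass (log2 difference -1.43, adjusted p = 0.0638 by limma). At 48 hr the B cell sum was lower without WNK1 (453 to 710 against 1254 to 2105 in control). The T lineage, myeloid and dendritic sums overlapped then, as did the NK and innate lymphoid sum (14770 to 46706 against 16117 to 25953). The part of these cells in the receptor differences was not tested at any of these times.

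*Cxcr6* (ENSMUSG00000048521, chromosome 9, 123806477 to 123811754, plus strand), for the CXCL16 receptor of effector and tissue-resident lymphocytes, was near 0 before stimulation and rose in both genotypes. At 0 hr it held 3.52, 6.33 and 1.06 normalized counts in control and 5.53, 6.91, 4.22 and 3.06 in WNK1-deficient libraries, and at 3 hr 0.981, 4.94 and 1.05 and 72.0, 4.29 and 2.22. At 24 hr it held 483, 331 and 93.6 in control and 1047, 1124 and 1089 without WNK1, and at 48 hr 612, 804 and 659.8 and 1125, 3268 and 209. All deficient libraries were higher than the control libraries at 24 hr, whereas the 48 hr deficient libraries spread from below to above the control range. The rise to 24 hr was 5.92 ± 0.94 (SE, adjusted p = 5.68e-05) in control (6.62 without replicate 3 at 24 hr) and 7.56 ± 0.88 (SE, adjusted p = 1.52e-06) without WNK1. The genotype difference at 24 hr, 2.13 ± 0.94 (SE, adjusted p = 0.144), did not pass the test.

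*Ccr10* (ENSMUSG00000044052, chromosome 11, 101172998 to 101175443, minus strand), for the receptor of CCL27 and CCL28 that skin-homing T cells carry, peaked at 24 hr in both genotypes. The control libraries at 0 hr held 0, 0 and 1.06 normalized counts (1 read in all 3), those at 3 hr 23.5, 9.89 and 16.8, those at 24 hr 876, 1991 and 174 and those at 48 hr 222, 326 and 54.1. WNK1-deficient libraries held 5.53, 0.768, 2.82 and 4.29 at 0 hr, then 139, 50.02 and 86.6 at 3 hr, 2334, 3285 and 1989.5 at 24 hr and lastly 180.1, 384 and 59.1 at 48 hr. The 24 hr libraries of each genotype were above its libraries of 0 and 3 hr, and for the deficient ones also above those of 48 hr. The ratio of control at 24 hr to control at 0 hr was 2316, with a 95% exact (Clopper-Pearson) interval for counting error alone of 415 to 91509, and the test passed (adjusted p = 3.77e-08). The ratio of WNK1-deficient to control thymocytes at 0 hr, 14 reads against 1, was 8.80 with an interval of 1.34 to 372. That interval leaves out the spread between mice. The libraries of the genotypes overlapped at 0 hr and the limma test did not pass. It passed with a pseudocount of 0.5 (adjusted p = 0.0479) and without the 3 libraries that stand apart (adjusted p = 0.0465), and with lane as a covariate the log2 difference was -0.67 (adjusted p = 0.761). Genotype differences of 2.35 at 3 hr and 1.88 at 24 hr on the log2 scale did not pass by limma (adjusted p = 0.0660 and 0.123). The first passed with DESeq2 (2.46, adjusted p = 0.0290) and without the 3 libraries that stand apart (2.39, adjusted p = 0.0363), and the second with lane as a covariate (2.16, adjusted p = 0.0370). Without the 3 libraries the 24 hr difference was 0.91 (adjusted p = 0.452 by limma).

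*Ccr10* lies inside the span of *Cntnap1*, a gene for an axonal adhesion protein, on the opposite strand, although the gene models share no exon bases. The counting was strand-specific. *Cntnap1* was the gene whose level was most like that of *Ccr10* over the 25 libraries (Pearson r = 0.97, as a description over libraries of different times and genotypes), with 449.6 to 3360 normalized counts in control and 3535 to 5613 without WNK1 at 24 hr, and 1.06 to 6.33 and 21.5 to 52.1 at 0 hr. In the libraries of 3 to 48 hr *Ccr10* was 19.3% to 64.1% of *Cntnap1*. At 0 hr in the WNK1-deficient libraries it was 3.57% to 11.8%. Whether reads from one gene were counted for the other was not tested.

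**Figure D4:**
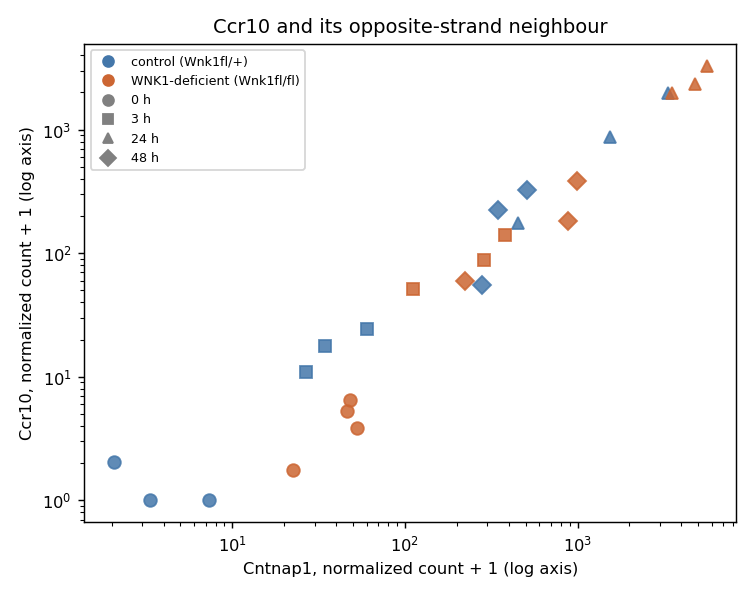
Normalized counts plus 1 of *Ccr10* (y axis) against *Cntnap1*, its neighbour on the opposite strand (x axis), both on log axes, with 1 point for each of the 25 libraries, colour for genotype and shape for time. The libraries line up from 0 hr at the lower left to 24 hr at the upper right, and the WNK1-deficient 0 hr libraries lie to the right of that line.

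Other receptor genes with such neighbours shared at most 1.74% of their exon bases with a gene on the other strand (*Ccr9* with *Gm17021*). On its own strand *Ccr9* overlaps the models *Gm17200* and *Gm17020*, between which reads could have been split. *Lztfl1*, which overlaps the *Ccr9* locus with no shared exon bases, was also higher without WNK1 at 0 hr (492 to 664 normalized counts in control, 1601 to 2260.2 without WNK1, log2 difference 1.76 ± 0.26, adjusted p = 6.77e-05 by limma). Unlike *Ccr9*, *Lztfl1* was also higher at 24 hr (1.05, adjusted p = 0.0146 by limma) and 48 hr (1.06, adjusted p = 0.0143 by limma). At 3 hr its difference did not pass (0.61, adjusted p = 0.181 by limma).

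Among the receptor genes themselves, *Ccr7* went with *Cxcr6* (Pearson r = 0.92), *Ccr4* (0.91) and *Ccr10* (0.90) over the 25 libraries, and *Cxcr4* ran against *Cxcr6* (-0.91) and *Ccr4* (-0.88), as a description in which the libraries share time and genotype.

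The genes whose log2 levels were most like those of each receptor gene were sought among the 10470 genes whose mean reached 100, as a description over 25 libraries that share time and genotype. *Cxcr5* was most like *Asb2* (Pearson r = 0.95), *Grk5* (0.91) and *Rnf24* (0.91). *Ccr7* was most like *Gimap4* (0.98), *Ampd1* (0.97) and *Ly9* (0.97), *Ccr4* like *Ly9* (0.96) and *Il2rb* (0.95), and *Ccr9* like *Nedd9* (0.95), *Mex3b* (0.94) and *Ptpn12* (0.94). *Cxcr4* was most like *Ifitm2*, *Aqp11* and *Rab44* (0.93 each). For *Cxcr6* these genes were *Igfbp4*, *S100a4* and *Sema4f* (0.97 to 0.98), for *Cx3cr1* *Tns4*, *Nipal1* and *Inpp4b* (0.89 to 0.91), for *Ccr2* *Dnahc12*, *Adap1* and *Cd163* (0.84 to 0.88) and for *Gpr183* *Hvcn1* and *Mmaa* (0.83 and 0.79). After *Cntnap1*, *Ccr10* was most like *Itih5* (0.96) and *Mmd* (0.95).

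Among the other genes of the pathway, none of the 6 tested genes of the receptors' ligands (of 19 listed) passed between the genotypes at any time by limma, edgeR or DESeq2, with 2 at 3 hr, 1 at 24 hr and 0 at 0 and 48 hr at an unadjusted p below 0.05 in limma. Their median log2 difference lay between -0.15 and 0.38. Of 5 tested among 16 other chemokine receptor genes, 2 were higher at 0 hr, of which *Ccrl2* had a log2 difference of 1.78, none passed at 3 hr in limma (2 at an unadjusted p below 0.05, 1 called by edgeR and 2 by DESeq2), and 1 was higher at 24 hr and 1 at 48 hr. Of 36 tested genes for receptor signalling and desensitization, 9 were higher and 3 lower at 0 hr. The numbers were 3 higher and 1 lower at 3 hr, 5 higher and 3 lower at 24 hr, then 5 higher and 9 lower at 48 hr. Their medians lay between -0.22 and 0.09.

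*Grk5*, for a kinase that desensitizes such receptors, was higher without WNK1 at every time, with log2 differences of 2.28, 2.17, 2.40 and 2.05. *Rgs1*, for a GTPase-activating protein that dampens chemokine signals, was higher at 0 hr (3.37), 24 hr (2.76) and 48 hr (1.66), whereas *Rgs10*, of the same family, was lower at all 4 times (-2.59, -1.51, -1.21 and -1.69). *Rgs16* was lower at 0 hr (-3.57) and higher at 24 hr (3.00), and *Rgs18* was higher at 0 hr (1.61), 24 hr (2.93) and 48 hr (1.94). *Rap2a*, for a small GTPase, was higher at all 4 times (1.83, 1.2, 1.46 and 1.19).

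Of 19 tested genes for other lymphocyte guidance receptors, 2 were higher and 1 lower at 0 hr, none passed at 3 hr in limma (3 at an unadjusted p below 0.05, 1 called by edgeR and 3 by DESeq2), 3 were higher and 2 lower at 24 hr, and 1 was higher and 3 lower at 48 hr. *Ptger4*, for a prostaglandin E2 receptor, was higher at 0 hr (0.80), 24 hr (1.11) and 48 hr (0.64), and *Ptger2*, for another, at 0 hr (1.08) and 24 hr (1.08). *Plxnd1*, for a semaphorin receptor, was lower at 0 hr (-0.78). Of the sphingosine 1-phosphate receptors, *S1pr2* was lower at 24 hr (-0.84) and 48 hr (-0.64), and *S1pr1*, known for the exit of T cells from the thymus, and *S1pr4* were lower at 48 hr (-3.79 and -1.47).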

How the data were processed

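RNA was measured in 25 libraries, each from a different mouse, in 8 groups of genotype and time. The deposited values are a signal, namely gene counts from RSEM which the authors scaled in each library by its DESeq2 size factor. The submitters' processing notes and the study's methods name Trimmomatic 0.36, STAR 2.5.2a, RSEM 1.2.31 (strand-specific) on GRCm38 (Ensembl 86), and DESeq2 1.18.1 in R 3.4.1. Each library's values were whole multiples of its smallest value (100% within 0.001 in all 25 libraries), and depth comes from these reads.

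Genes with a mean of at least 10 (14141 of 48795) were analysed on the log2(value + 1) scale by limma 3.58.1 (R 4.3.3), with 1 mean for each of 8 groups and a trend in the variance. Fold changes on this scale understate those of low genes. p-values were adjusted by Benjamini-Hochberg within each comparison, and the spread is shared by all groups. Changes were also tested on simulated data. Alternatives were pseudocounts of 0.5 and 5, no filter, quantile normalization, a common total, the sequencing lane as a covariate, a replicate block, a fit of only the groups compared, edgeR 4.0.16 and DESeq2 1.42.0 fitted to the recovered reads, and omission of each replicate in turn. The omission of 3 libraries that stand apart was added after seeing the data.

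The members and the gene lists were chosen with earlier results of these data known. All members are named whatever their values, with up to 3 genes of each list by absolute log2 change among those that passed in a comparison of the genotypes, *Grk5* at every time and 3 genes most like each member, apart from a few genes that are not reported here. Gene positions and promoter windows are RefSeq's (GRCm38.p6), and lengths and overlaps come from the NCBIM37 gene models. Tables and figures were made in Python 3.11.15 with matplotlib 3.10.9, numpy 2.4.6 and pandas 2.3.3.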

Additional observations from a re-analysis of the deposited data

Results flagged for a closer look

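In WNK1-deficient thymocytes at 0 hr, 1 library held 7735 normalized counts of *Ccr9* where the other 3 held 5722 to 6034, a gap that takes 0.845 of the whole range. That test flags about 1 in 20 groups by chance. The *Cx3cr1* response to stimulation differed between the genotypes, by 3.33 on the log2 scale at 24 hr (adjusted p = 0.0127, limma) and by 3.53 at 48 hr (adjusted p = 0.00758, limma), and both differences share the 0 hr libraries, in which lane and genotype go together. With lane as a covariate they were 4.94 and 6.26, values that lean on control replicate 3 at 48 hr and do not separate lane from genotype at 0 hr. Over the 11 alternatives other than single left-out libraries the adjusted p ran up to 0.0354 and 0.0220.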

How the results depend on the processing

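Of 2368 comparisons of a receptor gene's log2 difference with its value under an alternative, 2198 kept direction and side of the threshold, 80 lost a call, 39 gained one and 51 changed sign, 1 of these a called value (*Gpr183*, control, 3 hr against 0 hr, 0.46 with lane as a covariate). The number of receptor genes called stayed within 1.5 times except as follows. At 0 hr the 4 calls between the genotypes became 2 with a pseudocount of 5, no filter, lane as a covariate or edgeR. At 3 hr the 1 call became 3 with DESeq2 and 4 without the 3 libraries that stand apart, and at 48 hr the 2 became 1 with only the groups compared, as the 7 calls in control from 3 to 24 hr became 4. The 5 calls without WNK1 at 3 hr became 1 with lane as a covariate. For the response at 24 and 48 hr the 1 call became 2 with only the groups compared and 2 with DESeq2, at 48 hr also 2 without the 3 libraries, and for the response at 3 hr the 0 became 1 without them. With each library left out in turn the counts ran from 1 to 3, 1 to 2, 3 to 5 and 2 to 3 between the genotypes at the 4 times, from 2 to 4 (control, 3 hr against 0 hr), 4 to 7 (control, 24 against 3 hr), 3 to 5 (WNK1-deficient, 3 hr against 0 hr) and 1 to 2 (response at 48 hr).

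Replicate numbers do not pair the libraries, which are of different mice (12 pairs correlate from -0.20 to 0.20, 2 of them over 0.1). With the replicate block the calls between the genotypes were 2, 1, 4 and 3, and *Ccr2* without WNK1 at 3 hr against 0 hr turned to -0.15.

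Signs also changed for differences that did not pass the test. Between the genotypes, quantile normalization gave 0.0084 for *Cxcr4* and -0.027 for *Cxcr6* at 0 hr and 0.17 for *Ccr9* and -0.031 for *Ccr10* at 48 hr. Lane as a covariate gave -0.43 for *Ccr2* and -0.67 for *Ccr10* at 0 hr and 0.20 for *Ccr9* and 0.076 for *Gpr183* at 48 hr. *Ccr9* at 48 hr was also 0.074 with a common total, 0.082 with edgeR and 0.067 with DESeq2. Without the 3 libraries *Ccr4* was -0.043 at 24 hr, *Ccr9* 0.29 and *Gpr183* 0.072 at 48 hr, and *Ccr4* -0.61 in control at 3 hr against 0 hr. In control at 3 hr against 0 hr, *Cxcr4* was -0.089 with quantile normalization, -0.0059 with a common total and -0.68 with lane, where *Cxcr6* was 2.54 and *Cx3cr1* 0.40. With lane *Gpr183* was 0.87 (control, 24 hr) and 1.17 (WNK1-deficient, 3 hr) against 0 hr and the *Cxcr5* response at 3 hr was -0.12. *Ccr9* without WNK1 at 3 hr was -0.00070 with quantile normalization. With each library left out, differences between the genotypes ran from -0.15 to 0.011 (*Cxcr4*), -0.14 to 0.32 (*Gpr183*) and -0.12 to 0.53 (*Ccr2*) at 0 hr, -0.16 to 1.26 (*Ccr7*) at 3 hr, -0.043 to 0.64 (*Ccr4*) at 24 hr, and -0.26 to 0.29 (*Ccr9*), -0.81 to 0.072 (*Gpr183*), -0.50 to 1.48 (*Cxcr6*) and -0.74 to 0.73 (*Ccr10*) at 48 hr. Against 0 hr they ran from -0.071 to 0.098 (*Cxcr4*), -0.61 to 0.84 (*Ccr4*) and -0.18 to 0.25 (*Ccr2*) in control at 3 hr, -0.48 to 1.77 (*Cxcr6*) and -0.15 to 0.51 (*Ccr2*) without WNK1 at 3 hr, and -0.28 to 0.60 (*Gpr183*) without WNK1 at 48 hr. The causes were not tested.

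Over all genes, the calls between the genotypes (3124, 1298, 1765 and 1850 at the 4 times) were 665 at 0 hr and 542 at 48 hr with lane as a covariate, and 4776, 275, 942 and 228 with only the groups compared. With each library left out they ran from 1730 to 3000, 712 to 1381, 888 to 1966 and 1022 to 2212. With lane the 5232 and 4791 control calls at 3 and 24 hr against 0 hr were 2573 and 2134, and the 3486, 4293 and 3789 calls without WNK1 at 3, 24 and 48 hr were 200, 1254 and 899. Control from 3 to 24 hr (6168) had 2837 with only these groups. The responses (10, 93 and 192 calls) had 0, 5 and 23 with lane, 201, 364 and 436 with DESeq2, 39, 324 and 333 without the 3 libraries, 25 and 475 at 3 and 24 hr with only the groups compared, 4 and 90 at 3 and 48 hr with the replicate block, and 32 at 3 hr with no filter. With a common total the calls were 980 higher and 351 lower at 3 hr (813 and 485 as reported) and 1012 higher and 697 lower at 48 hr (867 and 983). edgeR called 3073, 1339, 1719 and 1763 genes between the genotypes. Groups of 3 or 4 mice limit what small differences can show, and counts under about 10 rest on few reads.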
